A study of Sorghum bicolor with 14 samples.

Results

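Grain maturation in sorghum was followed here as the step from 20 to 30 days after pollination (DAP), in seed of the cultivar M35-1 raised in an open field. The labels give the cultivar for the libraries up to 0-2 DAP and, in the growth protocol only, for the older seed, and nothing in them says that libraries came from separate plants. Both groups are seed for which the labels name no treatment, at a different age, 20 DAP with 3 libraries and 30 DAP with 2, out of 14 libraries in the series. The deposited table holds 1 value per gene and stage as TPM, a share of transcripts that corrects for gene length and adds up to 1000000 in every column. A gene was a member of the comparison when it had at least 1 TPM in either column, and 20025 of the 31337 genes of the table met this rule. The lowest member had 1.00025 TPM in its higher column and the highest gene left out had 0.99977 TPM.

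In cereal grains the filling phase is the time when the endosperm lays down starch and prolamin storage proteins, which in sorghum are called kafirins. Towards maturity the endosperm cells die while the embryo and the aleurone, the living outer layer of the endosperm, stay alive and prepare to survive drying. Late embryogenesis abundant proteins, oil body proteins, chaperones and protective sugars are the products best known from that phase. Gene IDs stand in the table without names, and the RefSeq gene list at hand matched 0 of the 31337. No gene below is therefore given a name or a function, and the tissue makeup of the 2 stages was not checked against marker genes. In whole seed, fewer cells of a type and less RNA per cell cannot be told apart.

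With 1 value per stage no difference has a replicate check. No p-value, SD or n over libraries is given, and the words higher and lower below refer to the 2 deposited values only. The size of a difference is log2(TPM + 1) at 30 DAP minus the same at 20 DAP, on which scale the change of low genes is understated. A gene was called higher or lower when that difference reached 1, a 2-fold change. TPM values are shares of 1 total, so the value of a gene depends on those of all others. For that reason the counts over all members and several other statements on direction were repeated after median-ratio scaling. A direction given without a scaled value holds for the deposited values only. Median-ratio scaling divides each column by its typical level, and it moves 30 DAP up against 20 DAP by 0.71 on the log2 scale. Ranks within a column are not touched by that scaling.

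The seed at 20 and at 30 DAP put nearly the same share of its transcripts into its 100 most abundant genes, 56.4% of TPM at the earlier and 56.6% at the later stage, but most of those genes were different ones. A total of 43 genes were in the 100 most abundant of both stages, 57 were there at 20 DAP only and 57 at 30 DAP only. Between the other consecutive stages the number shared was 49 of 100 for 1-2 days before pollination (1-2 DBP) and 0-2 DAP, 24 for 0-2 and 10 DAP, and 55 for 10 and 20 DAP. These sets were chosen on the TPM values of the same 2 columns, so their direction follows in part from the choice and is a description.

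The 57 genes that left the first 100 fell from 41.8% of the transcript total to 0.849%. The 43 genes present at both stages went from 14.6% to 36.6%, and the 57 that entered went from 2.53% to 20.1%. In percentage points, the genes already among the most abundant at 20 DAP thus gained more than the entering genes did. Their earlier values separate the sets further. At 10, 20 and 30 DAP in turn, the median of the leaving genes was 2042, 2370 and 4.23 TPM, that of the genes present at both stages 75.5, 1811 and 5660 TPM, and that of the entering genes 12.3, 378 and 2572 TPM. In the 1-2 DBP column the medians of the 3 sets were 0.0423, 1.55 and 4.05 TPM, and 37, 20 and 20 of their genes lay under 1 TPM there.

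**Figure D1:**
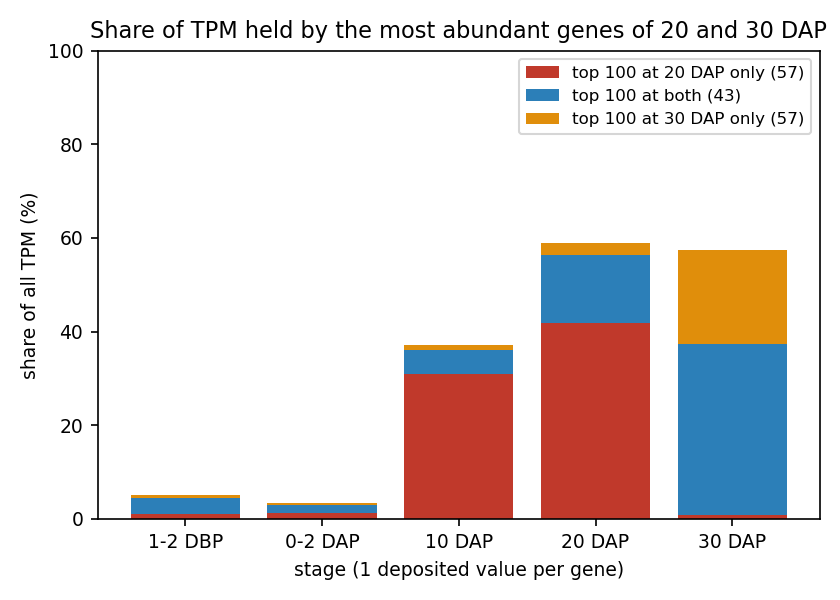
Share of all TPM (percent, vertical axis) held in each of the 5 stage columns by the genes that were among the 100 most abundant at 20 DAP only, at both stages, or at 30 DAP only. The 57 leaving genes fill 41.8% of the 20 DAP bar and 0.849% of the 30 DAP bar, while the 43 genes present at both take 36.6% of the latter.

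**Figure D2:**
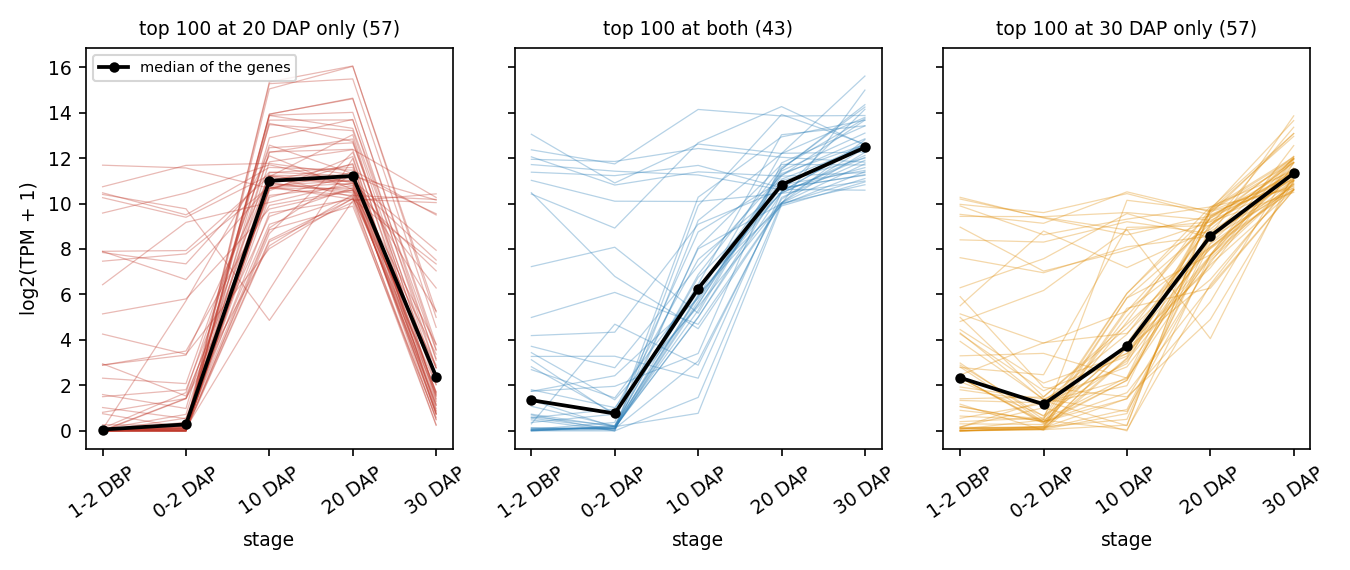
Level of each gene of the 3 sets over the 5 stages, as log2(TPM + 1), 1 thin line per gene and the median in black. The median of the leaving genes is nearly level from 10 to 20 DAP and drops at 30 DAP, while the medians of the other sets climb at each step from 0-2 DAP.

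Over all 20025 members, 2204 genes or 11.0% were called higher at 30 DAP and 6890 or 34.4% lower as deposited. After median-ratio scaling 4486 or 22.4% were higher and 4795 or 23.9% lower. The excess of lower genes among all members was thus small after that scaling, which aligns most genes by design. No balance of rises and falls is therefore read from the scaled counts. As deposited the excess was larger when the 100 most abundant genes of either stage were left out before TPM was formed again. There 2301 genes were higher and 8148 lower. The median difference was -0.58 as deposited and -0.03 after scaling. The 56 of 57 entering genes called higher and the 54 of 57 leaving genes called lower as deposited became 57 and 53 after scaling. Members that reached 1 TPM in a single column had to differ, and among the 15009 with 1 TPM in both columns 1725 were higher and 3885 lower as deposited, and 3729 and 1869 after scaling.

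**Figure D3:**
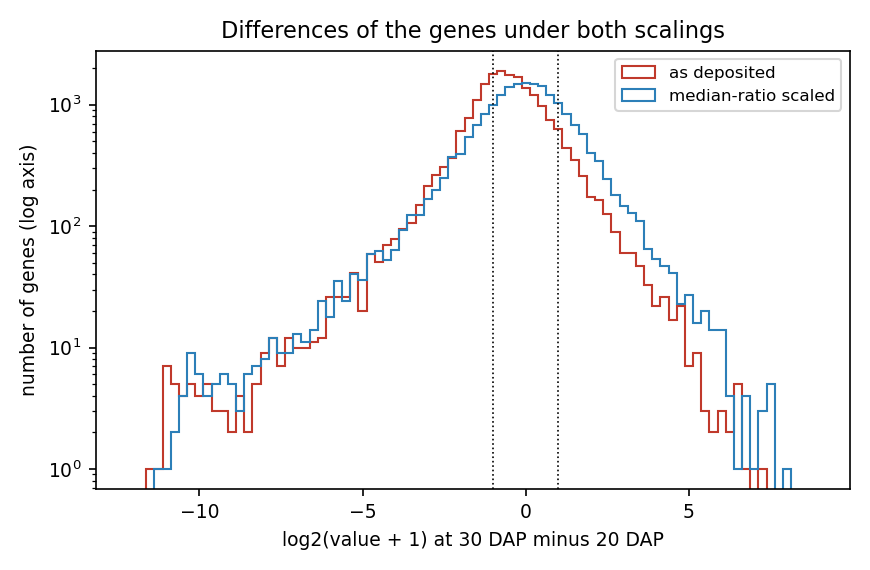
Distribution of log2(value + 1) at 30 DAP minus 20 DAP over the 20025 members, as deposited and after median-ratio scaling, with the number of genes on a log axis and dotted lines at a 2-fold difference. The scaling moves the median from -0.58 to -0.03, while the tail of falls beyond -10 is present under both.

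The most abundant transcript at 20 DAP was Sobic.005G184700. From the first to the last of the 5 columns it had 0.0232, 0.168, 41745, 67799 and 30.8 TPM. It was thus the first-ranked gene at 10 and 20 DAP, and its rank at 30 DAP was 2452. Sobic.002G211700, second at 20 DAP, had 0.0334, 0.0954, 33697, 67112 and 36.6 TPM in the same order of stages. These 2 transcripts made up 6.78% and 6.71% of the 20 DAP column and 0.00308% and 0.00366% of the 30 DAP column. The differences were -11.06 and -10.80 on the log2 scale as deposited, and -10.38 and -10.11 after median-ratio scaling.

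Among the first 10 genes of 20 DAP, the falls of more than 100-fold were alike in size. Of the 10 most abundant genes at 20 DAP, 9 were called lower at 30 DAP, beside 34.4% of all members as deposited. Choosing genes for a high value at 20 DAP favours such falls. Of the 9, 7 were lower by more than 100-fold. The rest of the 9, Sobic.008G030902 and Sobic.001G059800, were lower by only 3.26-fold and 2.46-fold. In those 7 the TPM at 20 DAP was between 1833 and 2318 times that at 30 DAP, with a median of 2162, although their levels at 20 DAP ranged from 13291 to 67799 TPM. Their remaining levels at 30 DAP, from 5.82 to 36.6 TPM, were therefore nearly proportional to their earlier levels. Over all 44 genes of the first 100 that were lower by more than 100-fold, the median ratio was 1983, with quartiles of 1221 and 2608 and a full range from 137 to 6107.

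With 1 TPM added to each value, the largest negative differences among genes of at least 100 TPM in their higher stage belonged to Sobic.002G211501, which stands in 1 run of adjoining IDs with Sobic.002G211700, and to Sobic.005G186300. At 10, 20 and 30 DAP in turn, the former had 2320, 8357 and 1.69 TPM, and the latter had 1510, 4289 and 0.861 TPM. Both were at or near 0 in the 1-2 DBP and 0-2 DAP columns. Their differences of -11.60 and -11.17 were -11.25 and -11.01 after scaling. The order depends on the pseudocount, since with 5 TPM added they were -10.29 and -9.52, against -10.89 for Sobic.005G184700 and -10.66 for Sobic.002G211700.

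IDs beginning with Sobic.005G were prominent among the leaving genes. Of the 18 such IDs in the first 100 at 20 DAP, 17 left, 1 stayed and 1 other entered. The 17 went from 19.3% of TPM to 0.0275%, with medians of 4289 and 3.42 TPM. All 17 were lower by at least 10-fold. That follows in part from their choice as leaving genes, and nothing is read from it against the 182, or 20.6%, of the 885 genes with at least 100 TPM at 20 DAP that were lower by as much. All IDs with this prefix, on and off the list, held 21.6% of the TPM at 20 DAP and 2.22% at 30 DAP. For IDs beginning with Sobic.001G the shares were 14.5% and 26.6%, and for Sobic.003G they were 8.03% and 14.5%. Among all members with the Sobic.005G prefix, 39.2% of 985 genes were called lower as deposited, against 34.4% of all members and 31.1% to 38.1% for the other 9 numbered prefixes. The difference between prefixes was thus large in transcript mass and small in number of genes. Among the 57 leaving genes 22 stood in 8 runs of adjoining IDs, the longest with 5, while the genes present at both stages had 2 such pairs and the entering genes 1. Whether the neighbours in such runs are alike in sequence was not examined. How the authors counted reads that fit more than 1 gene is not given in the sources used here, so the split of reads within such runs is uncertain.

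The remaining high-ranked genes of 20 DAP fell into few intermediate positions. At 30 DAP, 43 of the 100 were again in the first 100, 11 were between rank 100 and rank 1000, 7 between rank 1000 and rank 5000, and 39 beyond rank 5000. These 100 were chosen for a high value at 20 DAP, which favours falls in advance. Their split by the 10 DAP column, which that choice did not use, is a description. Of the 55 genes that were also in the first 100 at 10 DAP, 46 were called lower at 30 DAP and 1 higher, and 29 lay beyond rank 5000. Of the 45 genes that were not yet in the first 100 at 10 DAP, 10 were called lower and 25 higher, and 33 were still in the first 100 at 30 DAP. Over all members 34.4% were called lower and 11.0% higher. These calls are as deposited and were not counted again after scaling. The median difference was -9.47 in the former and 1.28 in the latter. The share of TPM went from 46.9% to 11.0% in the former and from 9.49% to 26.4% in the latter. Their levels at 20 DAP differed as well, with medians of 2635 and 1476 TPM. The split was not clean, since 10 of the 55 were still in the first 100 at 30 DAP. Likewise 10 of the 45 lay beyond rank 5000.

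**Figure D4:**
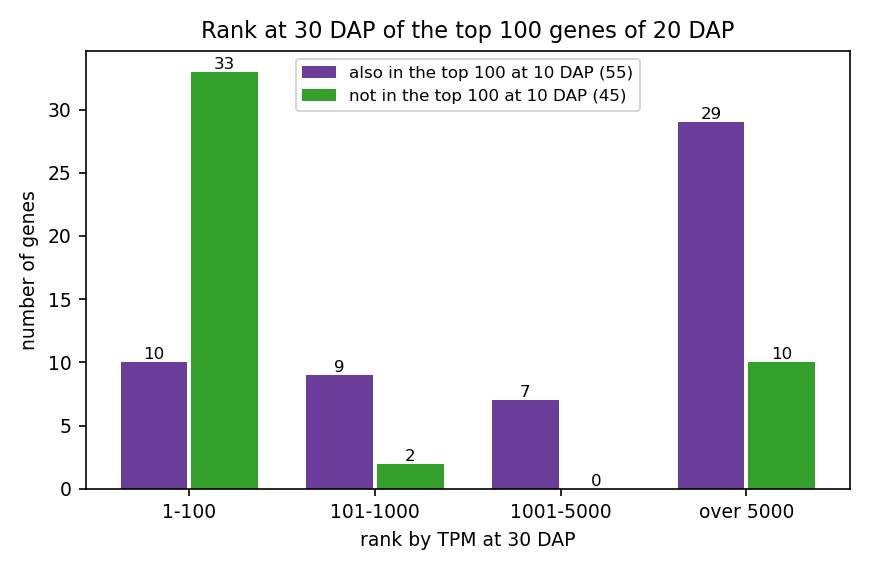
Number of the 100 most abundant genes of 20 DAP (vertical axis) by their rank in the 30 DAP column (horizontal axis), split by whether they were also among the 100 most abundant at 10 DAP. Of the genes already abundant at 10 DAP 29 of 55 lie beyond rank 5000, and of the others 33 of 45 remain in the first 100.

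A few high-ranked genes of 20 DAP, picked with their values in view, departed from both courses. Sobic.008G030902 had 6537, 19662 and 6031 TPM in the 10, 20 and 30 DAP columns, and Sobic.001G059800 had 955, 15458 and 6290 TPM. They were the only 2 genes called lower among the 43 present at both stages, and after median-ratio scaling neither passed 2-fold, at -0.99 and -0.59. Sobic.005G228700, with 1926 and 182 TPM at 20 and 30 DAP, and Sobic.008G030802, with 1533 and 130 TPM, were the only members lower by at least 10-fold that still had 100 TPM at 30 DAP. Of the 57 leaving genes 3 were not called lower and left the first 100 by a small loss of rank. They were Sobic.003G088400, with 1111 and 1374 TPM, Sobic.003G437400, with 1162 and 1052 TPM, and Sobic.006G135587, with 1308 and 1158 TPM. After scaling the first of them was called higher, at 1.02, and the sign of the latter 2 turned positive.

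The transcripts that took the first ranks at 30 DAP were in most cases already abundant at 20 DAP. Of the 10 most abundant genes at 30 DAP, 9 had been in the first 100 at 20 DAP and the other had rank 211. In the 1-2 DBP and 0-2 DAP columns 6 of the 10 were below 10 TPM in both, and 5 were below 100 TPM at 10 DAP. Of the 100 most abundant at 30 DAP, 43 had been in the first 100 at 20 DAP, 51 between rank 100 and rank 1000, and 1 beyond rank 5000. In the 10 DAP column these numbers were 13, 18 and 42. As deposited 82 of the 100 were called higher at 30 DAP, 2 lower and 16 neither. Among all members the shares were 11.0% higher and 34.4% lower. The 100 were chosen for a high value at 30 DAP, so their direction follows in part from that choice.

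Sobic.001G141300 ranked first at 30 DAP with 49903 TPM, or 4.99% of all TPM. It also ranked first at 1-2 DBP with 8455 TPM, and in the 3 columns between it had 1916, 6279 and 4702 TPM. It was among the 30 most abundant genes of every stage, and the 30 DAP value was 10.6 times that at 20 DAP on the TPM + 1 scale. Sobic.009G116700 ranked second at 30 DAP with 32535 TPM. Its values in the 4 columns before were 1421, 110, 21.5 and 1010 TPM, so it was lowest at 10 DAP. The differences to 20 DAP were 3.41 and 5.01 as deposited, and 4.12 and 5.72 after scaling.

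Other high-ranked genes of 30 DAP, picked with their values in view, were under 2 TPM in the 1-2 DBP and 0-2 DAP columns. Sobic.001G144900, at rank 3, had 1.55, 0.117, 38.5, 2902 and 20853 TPM over the 5 columns. Sobic.004G196900, at rank 12, had 0.169 TPM at 10 DAP, then 852 and 12834 TPM. Sobic.003G117000 took another course, since it had between 123 and 378 TPM in the first 4 columns and 14822 TPM at 30 DAP, a difference of 5.29. It was the 1 gene of the 10 most abundant at 30 DAP that had been outside the first 100 at 20 DAP.

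With 1 TPM added to each value, the largest positive differences as deposited among genes of at least 100 TPM in their higher stage belonged to Sobic.002G075800 and Sobic.001G028600. The former had 27.1, 71.3, 459, 15.6 and 2572 TPM over the 5 columns, so its lowest value of all was that at 20 DAP. The latter was under 1 TPM up to 10 DAP, had 3.63 TPM at 20 DAP and reached 510 TPM at 30 DAP. Their differences were 7.27 and 6.79 as deposited, and 8.01 and 7.60 after scaling. This order depends on the pseudocount and the scaling. With 0.1 TPM added, the differences of these genes were 7.35 and 7.10, and 3 genes with less than 1 TPM at 20 DAP passed both, Sobic.004G101800 at 8.29, Sobic.009G157800 at 7.61 and Sobic.003G395000 at 7.36. Among these genes the first also passed Sobic.001G028600 after scaling, at 7.61. As a ratio of TPM + 1, which understates gains from a low level, 2 genes of at least 100 TPM at 30 DAP were higher by more than 100-fold. On the same scale falls of that size were counted in 110 of the 885 genes with at least 100 TPM at 20 DAP. A fall of 10-fold or more was seen in 182 of those 885, and a gain of 10-fold or more in 91 of the 890 genes with at least 100 TPM at 30 DAP, or 10.2%. After scaling these 2 numbers were 171 and 163, so the surplus of strong falls at 10-fold depends on the scaling, while at 100-fold 108 falls stood against 10 gains. The 182 genes went from 43.2% of TPM to 0.112%, and the 91 genes went from 1.31% to 21.8%.

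**Figure D5:**
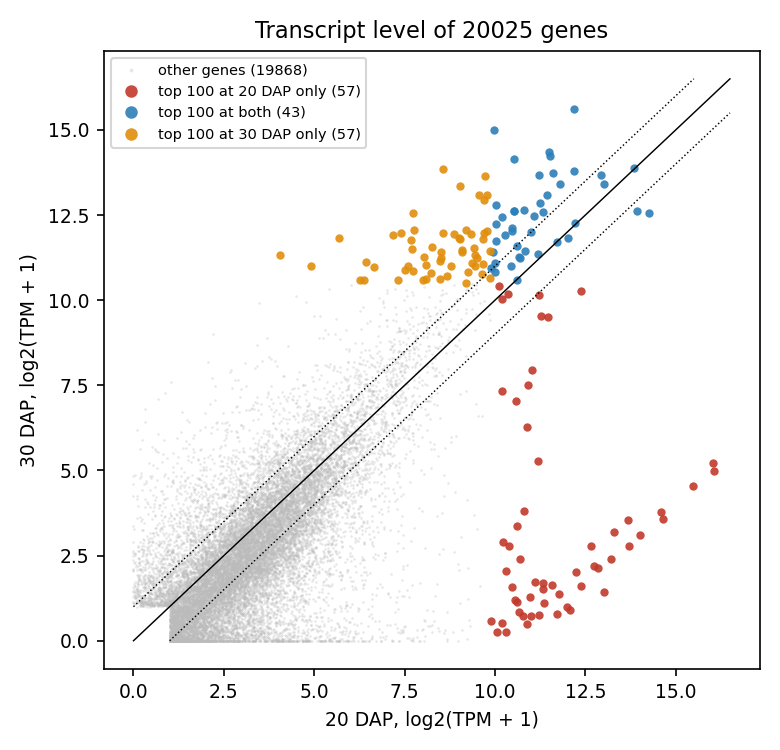
Level of each member at 20 DAP (horizontal axis) and 30 DAP (vertical axis), both as log2(TPM + 1), with 1 point per gene; the solid line marks equal values and the dotted lines a 2-fold difference. Most of the leaving genes lie at the lower right, far below the line of equal values. The entering genes lie above the upper dotted line except Sobic.006G257900.

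A total of 105 genes were among the 200 most abundant of both stages, and 62 of them kept their rank, meaning that the ranks differed by less than 2-fold. Their share of TPM was 9.57% at the earlier stage and 15.1% at the later. As deposited 38 of the 62 were within 2-fold in TPM, 24 were higher and none was lower. After scaling 50 of the 62 were higher and again none was lower, so a kept rank was not the same as a kept level. Of all members, 11.0% were higher and 34.4% lower as deposited, and 22.4% and 23.9% after scaling. The 62 were chosen by their ranks in these same 2 columns, so their direction follows in part from the choice and is a description. The rank itself was better at 30 DAP in 39 of the 62 and worse in 22.

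Most of the genes that kept their rank were of 2 kinds by their earlier values. A group of 35 had at least 100 TPM in all 5 columns, and their joint share over the 5 columns in order was 5.76%, 3.84%, 5.68%, 4.48% and 6.35%. Another 20 were below 10 TPM in both the 1-2 DBP and the 0-2 DAP column, and their share was 0.00363%, 0.00155%, 0.383%, 4.43% and 7.47%. Steady rank between 20 and 30 DAP was therefore found both in genes used at every stage and in genes that appeared with the seed.

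Of the former kind, Sobic.008G185900 had 5263, 3425, 18026, 14769 and 14981 TPM over the 5 columns. It ranked 9th at 20 DAP and 6th at 30 DAP and was the 1 gene in the first 10 of both. Sobic.003G071901 had between 3614 and 5481 TPM in all 5 columns, with 4192 and then 3614 TPM in the last pair. Its small negative difference of -0.21 turned to 0.50 after scaling.

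Of the latter kind, Sobic.006G167700 had 1241, 7808 and 12996 TPM in the 10, 20 and 30 DAP columns. Sobic.007G075250 had 86.4, 8340 and 10952 TPM. The adjoining ID in the table, Sobic.007G075301, was named after its values were seen and had 116, 3099 and 13643 TPM. It went from rank 33 at 20 DAP to rank 9 at 30 DAP and so did not keep its rank by the rule used here. Sobic.007G029800 had 57.9, 4732 and 4894 TPM at 10, 20 and 30 DAP. All of them were under 1 TPM at 1-2 DBP and 0-2 DAP. Sobic.005G165700, the 1 gene with the Sobic.005G prefix that stayed in the first 100, was listed at 0 in those 2 columns and had 268, 3376 and 3314 TPM in the later 3. Its difference was -0.03 as deposited and 0.68 after scaling. Sobic.009G215700, with 2552 and 6216 TPM at 20 and 30 DAP, and Sobic.004G092700, with 2151 and 5660 TPM, kept their rank and were still more than 2-fold higher in TPM. In both, ranks within 2-fold of each other went with unlike levels.

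The differences were also listed by the level of a gene over the whole series. When members were divided into 5 equal groups by their mean log2(TPM + 1) over the 5 columns, the median difference was between -0.64 and -0.62 in the lower 4 groups and -0.35 in the highest as deposited. After scaling it was -0.32 in the lowest group and 0.34 in the highest, with values in between for the other 3. The 1 TPM added to each value shrinks the shift made by scaling in low genes. The groups were also formed in part from the 20 and 30 DAP values themselves. No dependence on level is therefore read from these medians. The highest group, from 27.5 TPM upwards, had 14.1% of its 4005 genes higher and 30.0% lower as deposited, and 30.3% higher and 16.7% lower after scaling. Between 20 and 30 DAP the share of TPM held by all genes beyond rank 1000 went from 23.9% to 17.6%, and that of the first 10 from 31.1% to 21.1%, so the loss at the very top and in the long tail was matched by a gain of the ranks between.

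Across genes, which are no replicates, the rank correlation of the 20 and 30 DAP columns was 0.642 (Spearman's rho over the members). Computed in the same way over the genes with at least 1 TPM in either stage, rho was 0.908 for 1-2 DBP and 0-2 DAP, 0.684 for 0-2 and 10 DAP, and 0.855 for 10 and 20 DAP.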

How the data were processed

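The authors deposited TPM values in 1 table with a column per stage, per the file headers. The submitters' processing notes list HISAT2, featureCounts 2.2.0 and DESeq2 and give no roles. RNA was made into libraries with 2 strand-keeping kits, per the labels' protocols, which do not say which stage had which. How libraries of a stage were combined is not given in the sources used here, nor is the genome build. Depth is unknown, since TPM keeps none, and no counting interval is given.

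From the TPM, log2(TPM + 1) was compared between 20 and 30 DAP among genes with at least 1 TPM in either column. Median-ratio factors over 23243 genes above 0 in all 5 columns were 0.673 for 20 DAP and 0.411 for 30 DAP. A copy of the 20 DAP column, with known folds set in some genes and no noise, was used to check that the code applies the 2-fold rule. That check does not measure how reliable a call from 1 value per stage is. Gene lists planned by description could not be used without names, and IDs remembered for such lists were not used because no source here annotates them. Named were the 2 largest differences in each direction among genes of 100 TPM or more, the 2 most abundant genes of each stage and the 8 most abundant that kept their rank. Any other ID was chosen after its values were seen. All choices were made with earlier results of these data known. Python 3.11.15, numpy 2.4.6 and pandas 2.3.3 were used.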

Additional observations from a re-analysis of the deposited data

How the results depend on the processing

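Counts of called genes moved by more than 1.5 times under these alternatives. With a pseudocount of 5 there were 1431 higher and 3094 lower genes. After median-ratio scaling over 5 stages 4486 were higher, and after that scaling over the 2 stages alone 4109 were higher and 4051 lower. Quantile normalization gave 3817 higher and 3641 lower, so higher genes made up 24.2% of the called genes as deposited, 48.3% and 50.4% under the 2 median-ratio scalings and 51.2% here, but 22.0% without the 100 most abundant genes of either stage. With at least 1 TPM asked in both columns, an alternative chosen after seeing the data, 3885 were lower. Both kinds of scaling align most genes by design, and the stricter filter tests fewer genes. A pseudocount of 0.1, no filter, a filter of 5 TPM and leaving out the 100 most abundant genes of either stage moved neither count by that much. The rank correlation was 0.839 with no filter and 0.467 with a filter of 5 TPM. Genes shared by both stages made up 34.0% of the 50, 52.5% of the 200 and 56.4% of the 500 most abundant. At 20 DAP the first 10, 50 and 100 genes held 31.1%, 49.1% and 56.4% of TPM, and at 30 DAP 21.1%, 45.4% and 56.6%. With a rank limit of 1.5-fold, 44 genes kept their rank. Of 243 recomputed differences of named genes 81 moved by more than 1.5 times in fold, 30 of them under median-ratio scaling over 5 stages, and 0 of those called changed sign. No paired analysis was possible because each stage has a single deposited column, so that no library could be left out either. The planned medians of gene lists were not run.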

Other observations

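Genes with a turn at 20 DAP were few. In 76 genes the 20 DAP value exceeded both neighbouring stages by 4-fold or more, and after median-ratio scaling in 129, of which 69 were among the 76. Over the last 3 columns their joint share of TPM was 0.220%, 1.92% and 0.0312%. The most abundant of them at 20 DAP were Sobic.009G009900, with 409, 4887 and 3.07 TPM at 10, 20 and 30 DAP, and Sobic.002G362400, with 72.3, 4048 and 0.981 TPM. The opposite course, a dip of 4-fold or more against both neighbours, was seen in 75 genes as deposited and 74 after scaling, with 48 in common. Behind Sobic.002G075800 the most abundant of these at 30 DAP was Sobic.003G208800, with 487, 46.9 and 511 TPM.

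More genes passed the limit of 1 TPM at 20 DAP alone than at 30 DAP alone. Of the 20025 members, 4157 had at least 1 TPM at 20 DAP and less at 30 DAP, and 859 the reverse. With the same limit on median-ratio scaled values the numbers were 3129 and 1197. The 4157 had a median of 2.56 TPM at 20 DAP, 78 of them had at least 100 TPM there, and 627 were listed at 0 at 30 DAP. The 859 had a median of 2.15 TPM at 30 DAP, so many genes of both sets lay near the limit. By the 2-fold rule 3005 of the 4157 were lower and 479 of the 859 higher as deposited, a direction fixed by their choice. Whether depth, which is unknown, or the number of libraries, 3 at 20 DAP and 2 at 30 DAP, plays a part was not tested. Of the 859, 552 also had at least 1 TPM at 1-2 DBP and 403 at 10 DAP. The 3 of them with at least 100 TPM at 30 DAP were Sobic.003G395000, with 0.844 and 155 TPM at 20 and 30 DAP, Sobic.009G157800, with 0.598 and 137 TPM, and Sobic.004G101800, with 0.251 and 110 TPM.

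IDs beginning with Sobic.K, which follow no numbered prefix, supplied 24 members. Of the 24, 20 were under 1 TPM at 20 DAP and so became members through their 30 DAP value alone, which fixed their direction. For that reason nothing is read from the 16 called higher as deposited and the 23 after scaling, beside 11.0% and 22.4% of all members. Their median went from 0.185 to 1.92 TPM, and the highest reached 23.4 TPM. All IDs with this prefix held 0.840%, 1.21%, 0.00305%, 0.00193% and 0.0124% of TPM over the 5 columns in order.

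The residue of the most abundant 20 DAP transcripts at 30 DAP, near a common fraction of their former level in 7 genes, is a value to look at again in the single libraries. The deposited column does not say whether both 30 DAP libraries hold it, and its origin was not tested.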
